A study of Mus musculus with 8 samples.

Results

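The 37 genes of the mouse mitochondrial genome were followed in RNA-seq libraries of mpkCCD cells, out of 55414 genes in the deposited tables. They were all genes whose symbol starts with mt-, and comprised 13 protein-coding, 2 rRNA and 22 tRNA genes. mpkCCD is a cell line from the cortical collecting duct of mice that carry a viral large T antigen transgene, and the study used 1 re-cloned subline chosen for its high Aqp2 expression. Cells received tolvaptan, an antagonist of the V2 vasopressin receptor, together with dDAVP, an agonist of that receptor, or dDAVP alone. Each group held 4 libraries, numbered 1 to 4, and both groups carried dDAVP. The deposited columns are headed Tol and Ctr, and Ctr, a name that the labels do not use, was read as dDAVP alone, the other of the 2 groups. The labels give neither doses nor the length of exposure. Nothing in them ties a library to a culture of its own, and the spread behind each p-value may therefore be technical.

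The mitochondrial genome is a small circle that is copied into long transcripts from both strands, and these are cut at the tRNAs that punctuate them. The mRNAs encode core subunits of the respiratory chain and of ATP synthase, and the rRNAs and tRNAs serve the ribosome inside the organelle. Fragments of this genome have also been copied into the nuclear chromosomes, where some are annotated as pseudogenes. Collecting duct principal cells rely on mitochondrial ATP for sodium transport. The cDNA kit named in the labels primes on poly(A), so a level given here is that of the primed RNA of each gene.

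Of the 37 genes, 28 are annotated on the forward strand, and 8 tRNAs and mt-Nd6, 9 in all, on the reverse strand. Only 9 members passed the filter of 10 or more counts in at least 4 libraries, and these were both rRNAs and 7 of the 13 protein-coding genes. Another 18 members were listed at 0 in all 8 libraries, of which 6 were protein coding and 12 were tRNAs. The remaining 10 tRNAs had a few counts. The 9 that passed had no fewer than 835 counts in any library.

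The 6 protein-coding genes listed at 0 formed 1 unbroken run along the genome. They were mt-Co2 and mt-Co3, subunits of cytochrome c oxidase, mt-Atp8 and mt-Atp6, subunits of ATP synthase, and mt-Nd3 and mt-Nd4l, subunits of complex I. In the GENCODE M21 annotation of GRCm38 the run covers 3161 bases at chrM:7013-10173 on the forward strand. The protein-coding genes on either side of the run, mt-Co1 before it and mt-Nd4 after it, had counts in every library. A value listed at 0 is the deposited estimate, and no statement on absence of these mRNAs can be drawn from it.

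Most of that run is also present on chromosome 1, in pseudogenes annotated at chr1:24611535-24616197 on the reverse strand of GRCm38. Each member was cut into all its windows of 50 bases, the read length in the labels, and each window was looked up in every annotated nuclear transcript. All 635 windows of mt-Co2 were found in a nuclear transcript, as were 99.5% of those of mt-Atp6, 99.9% of mt-Co3, 98.0% of mt-Nd3 and 98.8% of mt-Nd4l. The share was 62.2% for mt-Nd4 and 51.1% for mt-Co1, the genes on either side. It was 8.19% for mt-Nd2, 7.61% for mt-Nd5 and 1.04% for mt-Rnr2, and 0 for mt-Cytb, mt-Nd1, mt-Nd6 and mt-Rnr1. The exception was mt-Atp8, which was listed at 0 with none of its windows in an annotated nuclear transcript. It lies in the stretch of 230 bases at chrM:7697-7926 and beyond that answers to an unannotated gap of 233 bases between the pseudogenes Gm10925 and Gm28661. With 204 bases it was also the shortest protein-coding member.

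**Figure D1:**
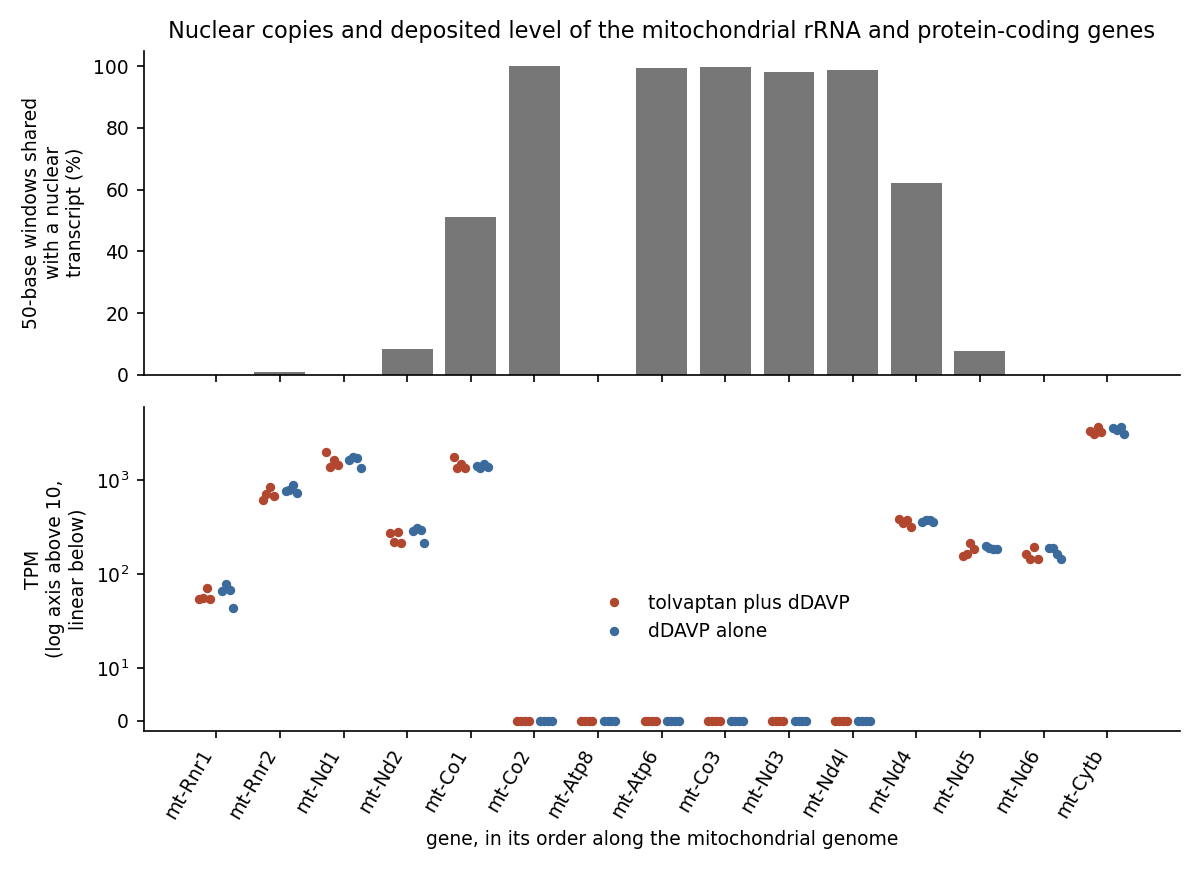
Share of 50-base windows found in an annotated nuclear transcript, in percent (upper panel, bars), and deposited TPM in each of the 8 libraries (lower panel, points, log axis above 10), for the rRNA and protein-coding genes in genome order. The 5 genes with 98.0% or more of their windows shared, and mt-Atp8 with 0, sit at 0 TPM in both groups, while mt-Co1 and mt-Nd4, with 51.1% and 62.2%, have levels of 320 TPM or more.

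The first bases of mt-Co2 and of its pseudogene Gm28661 are printed to show that a read from this stretch cannot be told apart by sequence. The coordinates are chrM:7013-7072 on the forward strand and chr1:24615506-24615565 on the reverse strand, and no base differs.

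mt-Co2: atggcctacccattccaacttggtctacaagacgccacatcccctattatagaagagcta
Gm28661: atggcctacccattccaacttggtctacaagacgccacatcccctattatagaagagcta

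Over the whole overlap without gaps, mt-Co2 and Gm28661 were identical at 681 of 681 bases. mt-Atp6 and Gm10925 were identical at 678 of 678 bases, mt-Co3 and Gm28437 at 783 of 783 and mt-Nd4l and Gm10222 at 294 of 294. mt-Nd3 and Gm28438 matched at 344 of 345 bases. Their only substitution was T3C, with the base of mt-Nd3 first and positions counted from 1 at the start of the gene. It is in capitals in the first 30 bases of both, at chrM:9459-9488 and, on the reverse strand, chr1:24613090-24613119.

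mt-Nd3: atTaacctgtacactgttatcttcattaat
Gm28438: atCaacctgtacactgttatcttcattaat

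mt-Nd4, which carries counts, is the gene where the nuclear copy ends. Its first 876 bases of 1378 were identical to Gm28439 at every base, and the rest had no window in any annotated nuclear transcript. The 60 bases around that end, at chrM:11013-11072, are given with the part held by Gm28439 in capitals.

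mt-Nd4: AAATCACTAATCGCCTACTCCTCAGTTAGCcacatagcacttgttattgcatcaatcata

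The 6 pseudogenes named above were at 0 in all 8 libraries as well. Another 3 copies had a few counts, with a highest value in any library of 6 for Gm13340, which resembles mt-Co1, 4 for Gm4076, which resembles mt-Nd5, and 3 for Gm13341, which resembles mt-Co2. No member had a non-whole expected count (to within 1e-09) in any library, against 15.4% of all genes with a count. A wider scan compared only the longest transcript of each gene in the table, and left out very short transcripts and those with unresolved bases. In it, 150 genes had every window shared with a gene on another chromosome. Of these, 95 (63.3%) were at 0 in all 8 libraries. Of 34377 genes with no shared window, 24.3% were at 0. The 150 include mt-Co2 and its copy Gm28661, and also the copies Gm10925, Gm28437, Gm10222 and Gm28439. All of these were at 0, so this set is not separate from the members. The sets also differ in gene type, with 4 protein-coding genes among the 150 and 16361 among the 34377. All 4 of the former, mt-Co2 among them, and 8.89% of the latter were at 0. The part of shared sequence in the zeros was not tested, since how reads with several matches were treated is not given in the sources used here.

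Neighbouring genes of this genome also overlap each other, and the kits named in the labels do not mark strand. mt-Atp8 and mt-Atp6 share 43 bases, which are read in 2 frames and are in capitals in the stretch chrM:7907-7989.

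mt-Atp8 to mt-Atp6: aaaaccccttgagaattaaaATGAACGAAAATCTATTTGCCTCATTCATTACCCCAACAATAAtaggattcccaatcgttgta

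mt-Nd4l and mt-Nd4 share 7 bases. Among members read from opposite strands, mt-Nd5 and mt-Nd6 share 14 bases at their ends, mt-Co1 and mt-Ts1 share 3, and mt-Ti and mt-Tq share 3. Reads of one strand cannot be told apart from the other in these libraries, so the counts of mt-Nd6 could hold RNA from the strand opposite to that gene.

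No tRNA had a TPM above 0, including the 10 with counts. The tRNA with the most counts was mt-Tq, the glutamine tRNA, with 0, 7, 9 and 4 counts with tolvaptan plus dDAVP, against 3, 20, 9 and 3 counts with dDAVP alone. mt-Tl1, a leucine tRNA, had 2, 2, 0 and 0 counts with tolvaptan plus dDAVP, against 0, 0, 2 and 0 counts with dDAVP alone. Together the 22 tRNAs had 2, 11, 9 and 4 counts with tolvaptan plus dDAVP and 6, 27, 16 and 3 counts with dDAVP alone, and the groups overlapped. mt-Tq spans 71 bases at chrM:3772-3842 on the reverse strand and is printed whole to show its size, with the 3 bases that lie opposite the end of mt-Ti in capitals.

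mt-Tq: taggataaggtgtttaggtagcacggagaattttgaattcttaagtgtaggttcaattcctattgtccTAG

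The deposited tables hold a measure of fragment size against which that length can be read. RSEM divides counts by the gene length less the fragment length, so that the ratio of counts to TPM over the 9 members with counts falls on a line whose crossing with 0 gives the mean fragment length. It was 325, 272, 255 and 283 bases with tolvaptan plus dDAVP, and 278, 239, 248 and 291 bases with dDAVP alone, and the groups overlapped. The largest deviation of a member from the line was 14.4 bases in library 1 of tolvaptan plus dDAVP and 5.05 bases or less in the others. Every tRNA, at 75 bases or less, and mt-Atp8, at 204, was shorter than the implied fragment in all 8 libraries. Of all 802 genes of 75 bases or less, 36 had a count and 0 had a TPM above 0.

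Among the 9 members with counts, mt-Cytb, the cytochrome b subunit of complex III at chrM:14145-15288, had the highest TPM. It reached 3328, 3108, 3720 and 3276 TPM with tolvaptan plus dDAVP, against 3604, 3381, 3685 and 3119 TPM with dDAVP alone. Library 3 was the highest in both groups and the groups overlapped. The log2 fold change from edgeR's quasi-likelihood test was -0.07 (SE 0.07), with a 95% interval of -0.23 to 0.09 and an adjusted p of 0.774.

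mt-Nd1, a subunit of the membrane arm of complex I at chrM:2751-3707, had 1989, 1375, 1642 and 1449 TPM with tolvaptan plus dDAVP, against 1659, 1783, 1713 and 1346 TPM with dDAVP alone. Library 1 of tolvaptan plus dDAVP was the highest of all 8 and library 4 of dDAVP alone the lowest. The log2 fold change was -0.06 (SE 0.10).

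mt-Co1, the catalytic subunit of cytochrome c oxidase at chrM:5328-6872, had 1762, 1356, 1469 and 1351 TPM with tolvaptan plus dDAVP, against 1403, 1339, 1495 and 1395 TPM with dDAVP alone. It was the single tested member with a fold change above 0, at 0.05 on the log2 scale (SE 0.07, 95% interval -0.10 to 0.20, edgeR adjusted p of 0.828), and the value of library 1 of tolvaptan plus dDAVP stood above the other 7. Without that library the log2 fold change was -0.02.

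mt-Rnr2, the large ribosomal RNA at chrM:1094-2675, had 612, 712, 851 and 683 TPM with tolvaptan plus dDAVP, against 764, 796, 895 and 724 TPM with dDAVP alone. The 3 lowest values were in tolvaptan plus dDAVP, and its library 3 lay among those of dDAVP alone. The log2 fold change was -0.17 (SE 0.10, 95% interval -0.39 to 0.05, edgeR adjusted p of 0.583). mt-Rnr1, the small ribosomal RNA at chrM:70-1024, had 54.1, 56.2, 71.2 and 54.3 TPM with tolvaptan plus dDAVP, against 65.9, 78.6, 68.2 and 43.3 TPM with dDAVP alone. Here library 4 of dDAVP alone was the lowest of the 8, and the log2 fold change was -0.16 (SE 0.17).

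mt-Nd2, another membrane-arm subunit of complex I at chrM:3914-4951, had the fold change furthest from 0. Its levels were 275, 219, 281 and 214 TPM with tolvaptan plus dDAVP, against 287, 311, 296 and 215 TPM with dDAVP alone. All 4 values with tolvaptan plus dDAVP were below those of libraries 1, 2 and 3 of dDAVP alone, while library 4 of dDAVP alone was level with the lowest. The log2 fold change was -0.21 (SE 0.12, 95% interval -0.47 to 0.05, edgeR adjusted p of 0.562).

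mt-Nd4, at chrM:10167-11544, had 389, 349, 378 and 320 TPM with tolvaptan plus dDAVP, against 360, 373, 377 and 363 TPM with dDAVP alone. mt-Nd5, at chrM:11742-13565, had 156, 163, 212 and 187 TPM with tolvaptan plus dDAVP, against 200, 190, 186 and 187 TPM with dDAVP alone. Both encode complex I subunits, and in both the spread was wider with tolvaptan plus dDAVP, with an SD of 31.3 and 25.6 TPM, against 8.24 and 6.54 TPM with dDAVP alone. mt-Nd6, the complex I subunit read from the other strand at chrM:13552-14070, had 163, 145, 195 and 145 TPM with tolvaptan plus dDAVP, against 190, 190, 163 and 146 TPM with dDAVP alone. Log2 fold changes were -0.06 (SE 0.06) for mt-Nd4, -0.10 (SE 0.09) for mt-Nd5 and -0.18 (SE 0.14) for mt-Nd6.

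**Figure D2:**
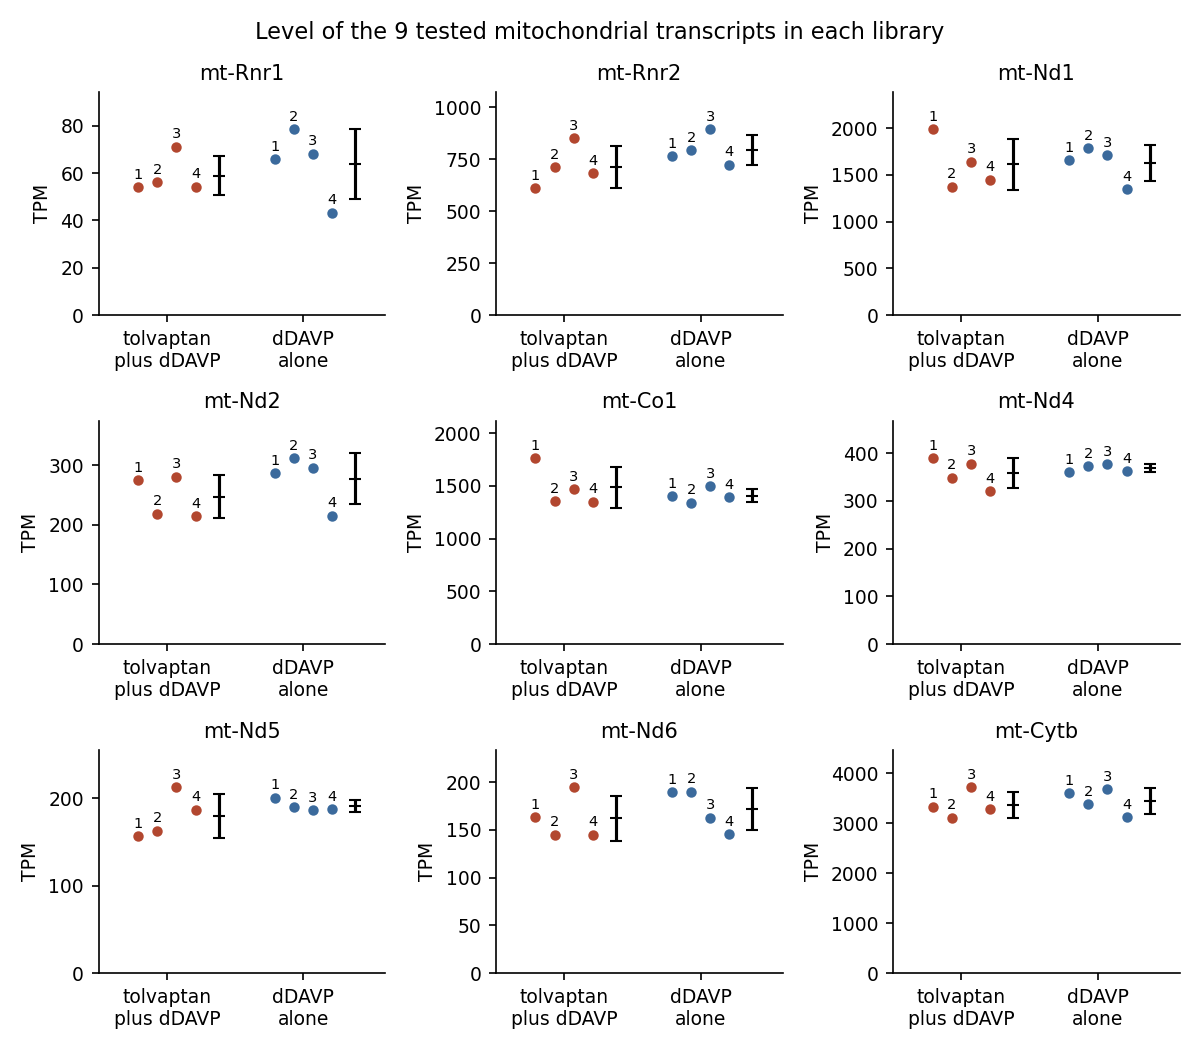
TPM of the 9 tested members in each library (points, numbered by library; horizontal tick and bar, mean and SD, n = 4), with tolvaptan plus dDAVP left and dDAVP alone right in each panel. The groups overlap in every panel, and library 4 of dDAVP alone is the lowest of its group for mt-Rnr1, mt-Rnr2, mt-Nd1, mt-Nd2, mt-Nd6 and mt-Cytb.

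By mean TPM over all 8 libraries the order was mt-Cytb (3403), mt-Nd1 (1620), mt-Co1 (1446), mt-Rnr2 (755), mt-Nd4 (364), mt-Nd2 (262), mt-Nd5 (185), mt-Nd6 (167) and mt-Rnr1 (61.5). Of these neighbours, mt-Nd1 and mt-Co1 overlapped over the libraries, as did mt-Nd5 and mt-Nd6, and the others did not. TPM divides by the length of the whole gene, including the part with a nuclear copy, less the fragment length. Depth-scaled counts (CPM) per 1000 windows found in no nuclear transcript, a measure added after seeing the data, gave 1639 for mt-Cytb, 1524 for mt-Co1, 735 for mt-Nd1, 485 for mt-Nd4 and 396 for mt-Rnr2. By this measure mt-Co1 changed places with mt-Nd1, and mt-Nd4 with mt-Rnr2, while the order of the other 5 was the same. Unlike TPM, the measure takes no account of fragment length, and it treats shared windows as giving no counts. The part of the nuclear copies in these changes of place was therefore not tested. Among the complex I mRNAs, mt-Nd1 was at 6.53 ± 0.599 times the TPM of mt-Nd2 in tolvaptan plus dDAVP and 5.89 ± 0.246 times in dDAVP alone (SD, n = 4).

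The question put to these libraries was what the antagonist did to transcript levels while the agonist stayed present. None of the 9 tested members was called by edgeR at an adjusted p under 0.05, where 59 of all 14772 genes tested (0.399%) were called, 27 higher (0.183%) and 32 lower (0.217%). None had an unadjusted p under 0.05 (11.2% of all genes, and 4.74% on the lower side), and none had groups that did not overlap (7.76% of all genes). DESeq2 and limma on log2(TPM + 1) also called 0 of the 9. Fold changes were below 0 for 8 of the 9, against 51.7% of all genes, with a median of -0.10 on the log2 scale against -0.0048 for all genes. These 9 come from shared precursor transcripts and the same libraries, and are not independent values. In bulk RNA, fewer mitochondrial genomes per cell and less RNA per genome cannot be told apart.

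The 95% intervals bound what these libraries could hold. The interval for mt-Nd4 was the narrowest, at -0.19 to 0.06 on the log2 scale, and that for mt-Rnr1 the widest, at -0.52 to 0.20. A p that misses the threshold does not show that a member was the same in both groups.

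The result was recomputed without library 4 of dDAVP alone, the lowest of its group for 6 of the 9 members. The median log2 fold change moved to -0.15, with 8 of the 9 below 0 again, beside 50.5% of all genes. Before adjustment, 2 members then passed 0.05 in edgeR's test. mt-Nd2 was at -0.31 (edgeR adjusted p of 0.246) and mt-Rnr1 at -0.31 (edgeR adjusted p of 0.379). Before adjustment 11.4% of all genes passed 0.05, and 4.92% did so on the lower side. None of the 9 was called, beside 28 of all genes (0.19%). Library 3 of tolvaptan plus dDAVP, the highest of its group for 6 of 9 members, moved the median further than any other single library. Without it the median was -0.20, with 8 of the 9 below 0 beside 51.4% of all genes, and 5 members (mt-Rnr2, mt-Nd2, mt-Nd5, mt-Nd6 and mt-Cytb) had an unadjusted p under 0.05, where 12.8% of all genes did, 5.29% on the lower side. The lowest edgeR adjusted p among the members was then 0.204, so none was called, beside 0.291% of all genes. Each of these removals lowers the difference by its construction, since it takes out a low library of dDAVP alone or a high library of tolvaptan plus dDAVP. The median moved the other way, to -0.06, without library 2 of tolvaptan plus dDAVP. It was -0.08 without library 1 or library 2 of dDAVP alone. In each of these 3 fits 0 members had an unadjusted p under 0.05, and over all 8 removals the median stayed between -0.20 and -0.06.

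**Figure D3:**
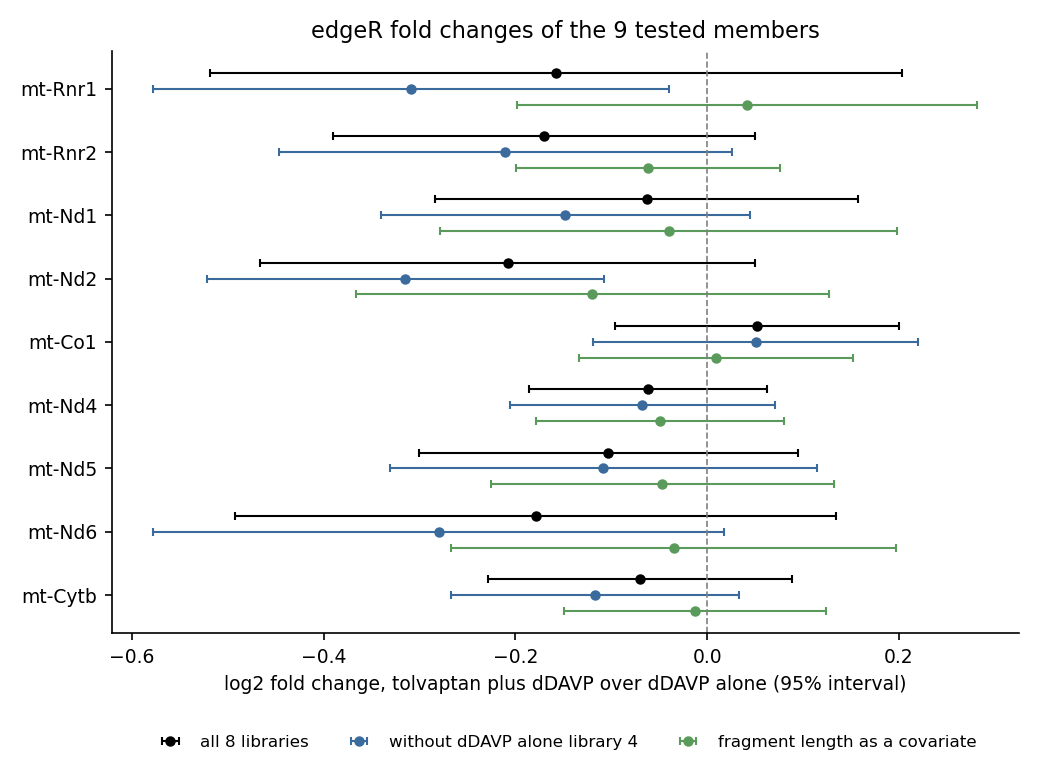
Log2 fold change of the 9 tested members, tolvaptan plus dDAVP over dDAVP alone, with 95% intervals from edgeR: all 8 libraries (black), without library 4 of dDAVP alone (blue) and with the implied fragment length as a covariate (green). Without library 4 of dDAVP alone the intervals of mt-Nd2 and mt-Rnr1 lie below 0, and with the covariate all 9 intervals cross 0.

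The counts of 2 of the 9 members moved with the fragment length of the libraries, a relation looked for after seeing the data. In edgeR fits with group and fragment length as terms, both rRNAs fell with longer fragments. mt-Rnr1 changed by -0.10 on the log2 scale per 10 bases (SE 0.02, edgeR adjusted p of 0.0388) and mt-Rnr2 by -0.06 (SE 0.01, edgeR adjusted p of 0.0302). These 2 of 9 members compare with 2.02% of all genes called for fragment length, and 1.81% called as lower with longer fragments. mt-Nd6 was at -0.08 (edgeR adjusted p of 0.0846), mt-Co1 at 0.02 (0.419), and mt-Nd1 and mt-Nd4 both at -0.01 (0.851 and 0.823). mt-Rnr1 had 20.3, 23.2, 30.2 and 22.3 CPM with tolvaptan plus dDAVP, against 27.3, 33.0, 29.1 and 17.8 with dDAVP alone. The 3 libraries with the shortest fragments, library 3 of tolvaptan plus dDAVP and libraries 2 and 3 of dDAVP alone, were the 3 highest.

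These calls rested on several libraries. For mt-Rnr1 the slope was between -0.14 and -0.07 with any 1 library left out, and the edgeR adjusted p exceeded 0.05 without library 1 (0.0902) or 3 (0.191) of tolvaptan plus dDAVP, or without library 2 (0.0782), 3 (0.0719) or 4 (0.103) of dDAVP alone. For mt-Rnr2 the slope was between -0.07 and -0.04, and the call was lost without library 1 (edgeR adjusted p of 0.39) or 3 (0.18) of tolvaptan plus dDAVP, or without library 3 (0.0673) or 4 (0.0767) of dDAVP alone. mt-Nd6 was called only without library 1 of dDAVP alone (edgeR adjusted p of 0.0433). Mean fragment length was 284 ± 29.7 bases with tolvaptan plus dDAVP and 264 ± 24.8 bases with dDAVP alone (SD, n = 4). With fragment length in the model the group difference of mt-Rnr1 was 0.04 on the log2 scale and that of mt-Rnr2 -0.06, against -0.16 and -0.17 without it. The same fit gave -0.12 for mt-Nd2, and 0 of the 9 members were called.

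**Figure D4:**
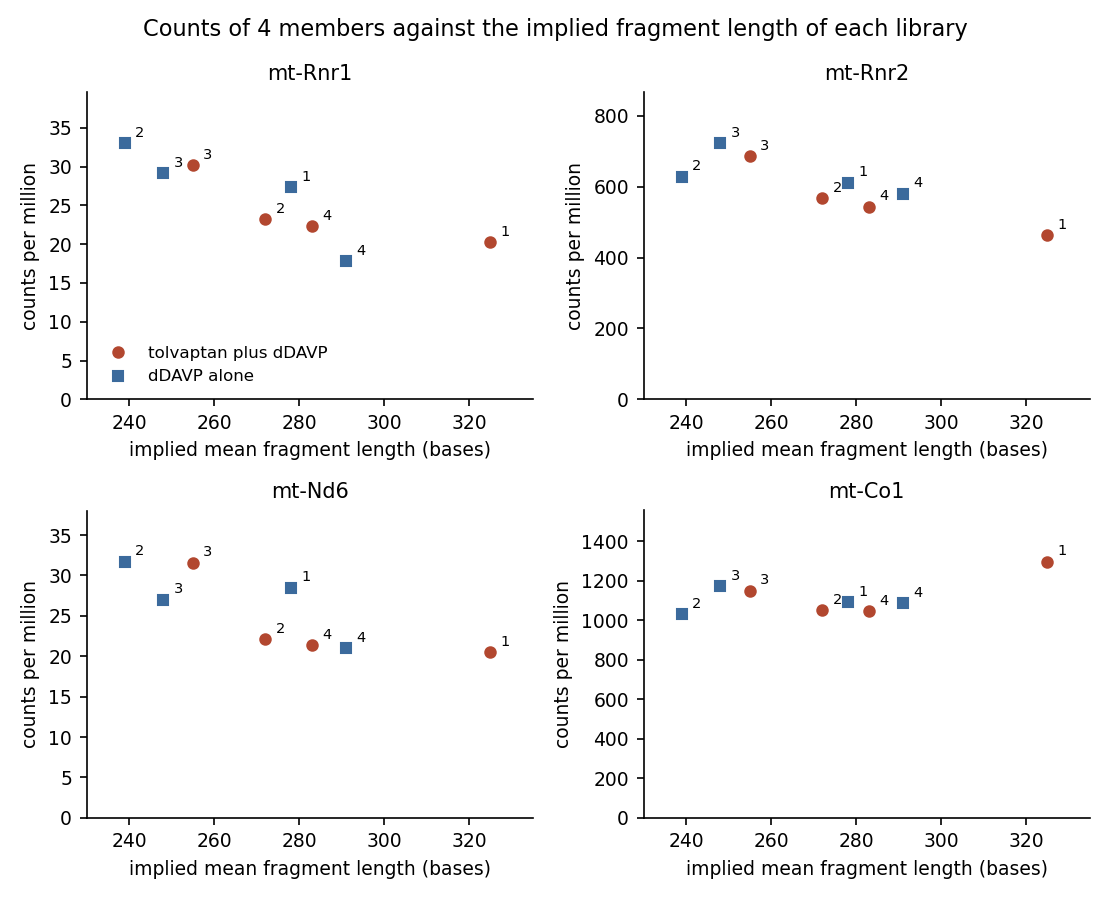
TMM-scaled CPM of mt-Rnr1, mt-Rnr2, mt-Nd6 and mt-Co1 (vertical axes from 0) against the implied mean fragment length of each library in bases, with tolvaptan plus dDAVP as circles and dDAVP alone as squares, numbered by library. For mt-Rnr1 the points go from 33.0 CPM at 239 bases to 17.8 at 291 and 20.3 at 325 bases, while mt-Co1 is highest at 325 bases.

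All members together took 0.469%, 0.434%, 0.522% and 0.446% of the counts with tolvaptan plus dDAVP, against 0.495%, 0.491%, 0.523% and 0.435% with dDAVP alone. The means were 0.468 ± 0.039% and 0.486 ± 0.0367% (SD, n = 4), and the difference of -0.0184 percentage points was smaller than either SD. It was -0.0353 without library 4 of dDAVP alone and -0.0366 without library 3 of tolvaptan plus dDAVP. It was -0.00609 without library 3 of dDAVP alone, and -0.00724 and -0.0111 without libraries 2 and 4 of tolvaptan plus dDAVP, so its size rested on single libraries. Shares of counts leave out whatever the 6 genes listed at 0 would have added. Of the mitochondrial counts, rRNA made up 10.3%, 13.5%, 13.8% and 12.7% with tolvaptan plus dDAVP, against 13.0%, 13.7%, 14.3% and 13.5% with dDAVP alone. mt-Co1 made up 27.7%, 24.0%, 22.1% and 23.5% with tolvaptan plus dDAVP, against 22.1%, 21.2%, 22.3% and 24.5% with dDAVP alone. Library 1 of tolvaptan plus dDAVP, which had the longest implied fragments, had the lowest rRNA share and the highest mt-Co1 share.

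Nuclear genes that maintain mitochondrial DNA, or that make, cut and use mitochondrial RNA, were read from 6 lists. Only 1 gene in them was called, where 0.399% of all genes tested were. Top3a, a topoisomerase that separates replicated mitochondrial genomes in human cells, had 26.3, 23.8, 21.8 and 23.0 TPM with tolvaptan plus dDAVP, against 17.8, 18.1, 18.7 and 19.4 TPM with dDAVP alone. The groups did not overlap, which held for 7.76% of all genes tested, and the gene rose by 0.39 on the log2 scale (SE 0.06, edgeR adjusted p of 0.022). The call was lost without library 2 (0.0613) or 4 (0.0772) of tolvaptan plus dDAVP and without library 1 (0.102), 2 (0.0836) or 3 (0.0821) of dDAVP alone, all edgeR adjusted p, with log2 fold changes from 0.37 to 0.40. With limma on log2(TPM + 1) its adjusted p was 0.111.

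Ppargc1a, a coactivator of mitochondrial biogenesis, did not pass the test, and its groups did not overlap, which held for 7.76% of all genes tested. It had 17.9, 16.5, 17.9 and 16.0 TPM with tolvaptan plus dDAVP, against 12.2, 11.5, 13.5 and 13.4 TPM with dDAVP alone. The log2 fold change was 0.41 (SE 0.08) with an edgeR adjusted p of 0.0596, and DESeq2 gave an adjusted p of 0.000768. With limma on log2(TPM + 1) the adjusted p was 0.0917. With each library left out in turn, the edgeR adjusted p was 0.0744 to 0.211. edgeR called the gene without a filter on low counts (0.000351). It also did so without library 1 of tolvaptan plus dDAVP and library 4 of dDAVP alone together (0.041). Its relative Pprc1 had 64.8 ± 7.56 TPM with tolvaptan plus dDAVP and 57.2 ± 1.72 TPM with dDAVP alone (SD, n = 4), and edgeR put it at 0.22 on the log2 scale (adjusted p of 0.2). The translation initiation factor Mtif3 was at 0.24 (edgeR adjusted p of 0.116). Of the 8 removals of a single library, only that of library 1 of tolvaptan plus dDAVP led edgeR to call Pprc1 (0.28, adjusted p of 0.0254) and Mtif3 (0.28, adjusted p of 0.0335). In the other 7 the edgeR adjusted p was 0.278 to 0.446 for Pprc1 and 0.18 to 0.303 for Mtif3.

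The core machinery of transcription gave differences within the spread between libraries. Polrmt, the mitochondrial RNA polymerase, had 71.0 ± 1.94 TPM with tolvaptan plus dDAVP and 68.5 ± 4.45 TPM with dDAVP alone (SD, n = 4), and a log2 fold change of -0.01. Tfb2m, which opens the promoter with the polymerase, was at 0.03 and the elongation factor Tefm at -0.10. Tfam, which packs the genome and starts transcription, had 49.2, 88.1, 85.4 and 87.2 TPM with tolvaptan plus dDAVP, against 89.8, 90.1, 87.0 and 89.5 TPM with dDAVP alone. Library 1 of tolvaptan plus dDAVP was thus low in TPM. From the counts, the log2 fold change of Tfam over all libraries was -0.09 (SE 0.05, edgeR adjusted p of 0.614), which does not give the count of that library.

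Genes that process the precursor were as close. Elac2, which cuts tRNAs at their 3′ ends, was at 0.09 on the log2 scale, and Trmt10c and Prorp, subunits of the enzyme that cuts their 5′ ends, were at -0.09 and -0.08. Mtpap, the poly(A) polymerase of the organelle, was at -0.04, and Lrpprc and Slirp, which together stabilise its mRNAs, were at -0.05 and -0.03. Pnpt1, an exonuclease of mitochondrial RNA decay, had 33.6, 36.7, 35.7 and 33.5 TPM with tolvaptan plus dDAVP, against 41.3, 39.5, 39.0 and 38.1 TPM with dDAVP alone. Its groups did not overlap, which held for 7.76% of all genes tested, and its log2 fold change was -0.13 (SE 0.05) with an edgeR adjusted p of 0.368.

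**Figure D5:**
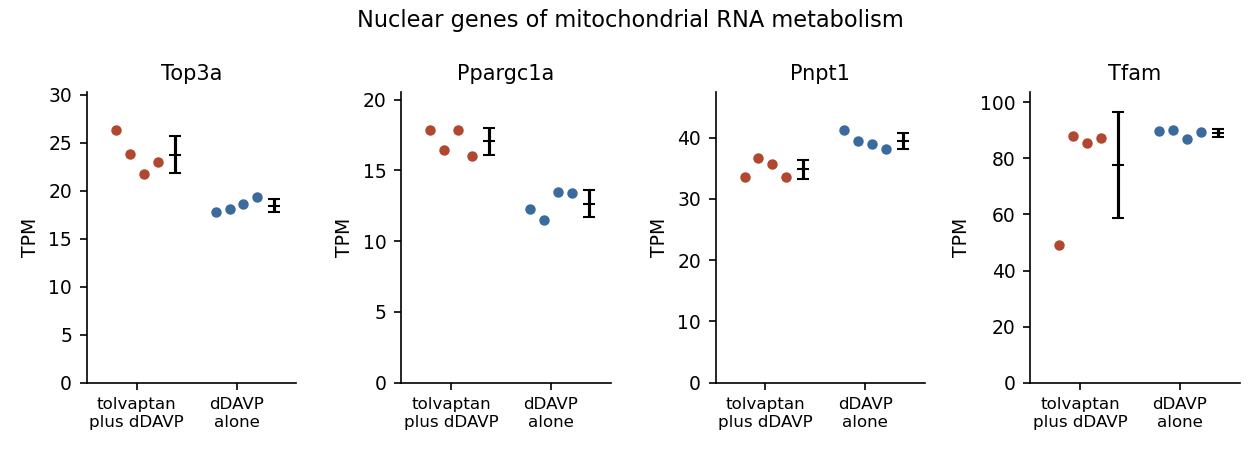
TPM of the nuclear genes Top3a, Ppargc1a, Pnpt1 and Tfam in each library (points) with mean and SD (n = 4), tolvaptan plus dDAVP left and dDAVP alone right. The groups do not overlap for Top3a, Ppargc1a and Pnpt1, of which Top3a alone was called. In log2 CPM the groups did not overlap for 7.76% of all genes tested. Library 1 of tolvaptan plus dDAVP stands apart for Tfam at 49.2 TPM.

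By list, edgeR called 1 higher and 0 lower of 18 genes of mitochondrial DNA transcription and maintenance, and 0 of 25 genes of RNA processing and decay. It called 0 of 24 genes that modify mitochondrial tRNA and rRNA, 0 of 23 aminoacyl-tRNA synthetases, 0 of 14 translation factors and 0 of 15 regulators of mitochondrial biogenesis. Over all genes tested 0.399% were called, 0.183% higher and 0.217% lower. Median log2 fold changes of these 6 lists lay between -0.04 and 0.02, against -0.0048 for all genes. Of 119 list entries, 12 higher and 8 lower had an unadjusted p under 0.05. Over all genes 11.2% had such a p, and 4.74% had it on the lower side. Lars2, the leucyl-tRNA synthetase, had a mean over all libraries of 847 TPM. It was the highest of the 23 listed synthetases, and the next was Gars at 270 TPM. Lars2 had 799 ± 65.9 TPM with tolvaptan plus dDAVP and 894 ± 65.3 TPM with dDAVP alone (SD, n = 4), with a log2 fold change of -0.16 and an edgeR adjusted p of 0.364.

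The nuclear partners of the mitochondrial mRNAs and rRNAs gave small values of the same sign. Of 81 nuclear respiratory chain subunits tested, 0 were called and 70 had a log2 fold change below 0, with a median of -0.07. Of 78 mitochondrial ribosomal proteins, 0 were called and 65 were below 0, with a median of -0.05. Cytosolic ribosomal proteins, which belong to no mitochondrial process, gave 73 of 77 below 0 with a median of -0.10 and 0 called. Over all genes tested 0.399% were called and 51.7% were below 0. Fragment length moved with these lists too. edgeR called 41 of the 81 respiratory chain subunits, 9 of the 78 mitochondrial and 47 of the 77 cytosolic ribosomal proteins as lower with longer fragments, and 0 of the 3 lists as higher, against 1.81% of all genes. The number of all genes called for fragment length was 299, and it was 19 without library 1 of tolvaptan plus dDAVP, 35 without its library 3, 63 without library 4 of dDAVP alone and 183 without its library 3. Without library 1 of dDAVP alone it was 512.

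Library depth was 41179670 to 49720488 expected counts with tolvaptan plus dDAVP and 46189118 to 56203831 with dDAVP alone. Principal cell markers were present in both groups, with 2 of 12 below 1 TPM. Aqp2, the vasopressin-regulated water channel, was at 9439 ± 1010 TPM with tolvaptan plus dDAVP and 8947 ± 871 TPM with dDAVP alone (SD, n = 4). Its log2 fold change was 0.05 (SE 0.08, edgeR adjusted p of 0.857), so no fall of Aqp2 with tolvaptan was seen in these libraries. Of 12 intercalated cell markers 8 were below 1 TPM, and their summed level was 63.8 to 140 TPM with tolvaptan plus dDAVP and 73.3 to 159 TPM with dDAVP alone. Proximal tubule markers (9 of 10) and stromal, endothelial and immune markers (11 of 12) were below 1 TPM for the most part. None of these marker lists had a called gene, where 0.399% of all genes tested were called.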

How the data were processed

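RNA was extracted, reverse transcribed with the SMARTer V4 kit, made into Nextera XT libraries and sequenced as paired-end reads of 50 bases, per the labels. Reads were aligned with STAR and quantified with RSEM (versions not given in the sources used here) against a mouse Ensembl annotation. The authors deposited expected counts per gene without normalization, and TPM, which are corrected for effective gene length and scaled to 1 sum per library. The authors' own comparison and term tables were not used.

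Groups came from the sample titles, and columns were matched to them by abbreviation and replicate number. The direction of every difference rests on reading Ctr as dDAVP alone. The members, gene lists and settings were chosen with earlier results of these data known. Expected counts were rounded, and genes reaching 10 counts in 4 or more libraries (14772) entered the fit. The test was that of edgeR 4.0.16 under R 4.3.3, with TMM factors, a quasi-likelihood fit, both sides and Benjamini-Hochberg adjustment at a threshold of 0.05. This replaced the DESeq2 of the study, and p-values were adjusted over all genes. DESeq2 1.42.0, limma 3.58.1 with pseudocounts of 1 and 0.1, other scaling factors, other filters, a replicate block, a covariate for replicates 1 and 2 against 3 and 4 and leaving out each library were alternatives. Leaving out 2 libraries together and the fragment-length covariate were added after seeing the data. The fits were tested on simulated counts. Library pairs all differed by more than sampling noise (smallest chi-square per degree of freedom 8.11).

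All members were named, with a set of nuclear genes of mitochondrial RNA metabolism and up to 3 called genes per list. Mtif3, Lars2 and Gars were named after their values were seen. Sequences, coordinates and 50-base windows came from GENCODE M21 on GRCm38, and all 37 members matched by Ensembl ID. The build of the study was another one, so coordinates are those of GRCm38.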

Additional observations from a re-analysis of the deposited data

Results flagged for a closer look

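Among 104 sets of 4 libraries examined, 5 held a library far from the other 3 of its group, measured by the gap to its nearest neighbour over the range of the group. Chance gives about 1 in 20 such sets, and 5 of 104 is near that rate. mt-Rnr1 in library 3 of tolvaptan plus dDAVP had 71.2 TPM, with the nearest library at 56.2. mt-Nd1 made up 16.0% of the mitochondrial counts in library 1 of tolvaptan plus dDAVP, with the nearest at 13.4%. In the same library the TPM of mt-Nd1 was 12.7 times that of mt-Nd5, with the nearest at 8.45 times. Both values use the mt-Nd1 level of that library, so they are not separate. In library 4 of dDAVP alone the TPM of mt-Nd1 was 6.25 times that of mt-Nd2, with the nearest at 5.79 times. Tfam had 49.2 TPM in library 1 of tolvaptan plus dDAVP, with the nearest at 85.4. Library 1 of tolvaptan plus dDAVP and library 4 of dDAVP alone, which hold 4 of the 5, had the longest implied fragments of all 8 libraries, at 325 and 291 bases. The part of fragment length in these values was not tested.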

How the results depend on the processing

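No member was called under any of the 20 alternative fits, the lowest adjusted p being 0.0713, for mt-Nd2 without a filter on low counts. The sign of 7 of the 9 fold changes was the same in all 20. That of mt-Rnr1 changed with fragment length as a covariate (0.04), and that of mt-Co1 in 2 of 20 (range -0.02 to 0.09). The number of genes called, 59, was 337 with DESeq2, 256 without a filter, 22 and 28 with limma at pseudocounts of 1 and 0.1, 99 without library 1 of tolvaptan plus dDAVP and library 4 of dDAVP alone, and 20 to 82 with each library left out in turn. The share of these calls that were lower was 54.2%, and it was 40.9% with DESeq2 and 86.4% and 71.4% with limma. The count of nuclear genes called, 1, was 5 with DESeq2, 3 without a filter, 0 with limma at a pseudocount of 1, 4 without both of these libraries, and 0 to 3 with each library left out. The cause was not tested.

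Same-numbered libraries of the groups correlated at -0.0126, 0.026, 0.157 and -0.00877 in their deviations from the group means. Libraries with different numbers correlated at -0.126 to 0.0685. Only the value for library 3 lay outside that range, so these correlations do not settle whether the numbers pair the samples. With the replicate number as a block, 17 genes and 0 nuclear list genes were called. mt-Rnr2 and mt-Nd2 were then under 0.05 before adjustment, and 0 members were called (lowest edgeR adjusted p of 0.361).

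The zeros of the 6 protein-coding members and the TPM of the tRNAs could not be recomputed from these tables under another treatment of reads, so no alternative addresses them. tRNA counts of 0 to 20 per library allow no comparison.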
